A study of Homo sapiens with 2 samples.

Results

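Ion channel genes were described in HES2, an established human embryonic stem cell line, infected with a lentivirus that carried a scrambled hairpin (scramble) or a hairpin against TFCP2L1, a transcription factor of the CP2 family (knockdown). Both cultures were grown for 3 passages in basal medium with 10% KSR, to which Activin A and FGF2 were added at 10 ng/ml each. Each group had a lone library, so differences below have no replicate check and compare 2 libraries rather than 2 conditions. Whether a culture was 1 clone or a pool of infected cells is not given in the sources used here. The genes were chosen by symbol alone, as the rows of the authors' deposited table whose symbol starts with the stem of a channel family: KCN, SCN, SCNN, CACN, RYR, ITPR, TRP, PKD, CLCN, CLIC, ANO, HCN, CNG, GABR, GRI, GLR, CHRN, P2RX, ASIC, PIEZO or AQP. This gave 49 genes of the 2005 in the table. Of these, 41 belong to families of pore-forming or receptor subunits (among them PKD1L2, a transcribed pseudogene in RefSeq), 7 encode auxiliary subunits and 1, PKDCC, is not a channel at all but a secreted protein kinase that shares the PKD letters. Counts over all channel genes below include PKDCC and PKD1L2 unless stated.

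Ion channels are membrane proteins that let selected ions pass down their electrochemical gradient. Potassium channels set the resting potential, voltage-gated sodium and calcium channels carry action potentials and calcium entry in excitable cells, ryanodine and inositol trisphosphate receptors release calcium from internal stores, and GABA-A, AMPA, nicotinic and P2X receptors open on binding a ligand. Auxiliary subunits do not form a pore but change the gating or surface delivery of the subunits that do. Although best studied in nerve and muscle, channels of many families are also expressed in cells that fire no action potentials.

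The deposited table holds only genes that the authors called as differing by at least 2-fold, so every gene in it is listed as higher or lower. The number of genes they tested, inferred from p-values and false discovery rates, was 18489, of which the listed genes are 10.8%. Levels are in FPKM (fragments scaled by transcript length and library size), as read from the values, and a pair of levels is always given in the order scramble, then knockdown. Read counts were recovered from the levels and the deposited p-values, with library sizes of about 23520000 (scramble) and 22750000 (knockdown) reads. The recovered reads of 48 of the 49 genes ran from 12 to 2201 over both libraries, with a median of 150.5. Folds given for single genes are ratios of these reads scaled by depth. Each is followed by its exact (Clopper-Pearson) 95% interval, which covers counting error only, since reads of 1 molecule cannot be told from reads of several. Log2 ratios were taken after adding 0.1 to each FPKM value, so ratios of genes at low levels are understated.

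TFCP2L1 itself, the target of the hairpin, was at 3.19 and 0.33 FPKM, 9.70-fold lower (7.56 to 12.6).

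Channel genes were listed in both directions, with 21 higher (42.9%) and 28 lower (57.1%) in the knockdown library. Over all listed genes, 54.1% were higher and 45.9% were lower. Their levels were low. In the library where each was higher, the median was 0.98 FPKM, with a range of 0.10 to 34.8, against a median of 3.30 FPKM for all listed genes. Only 24 of the 49 reached 1 FPKM in at least 1 library (49.0%, against 79.2% of all listed genes), and 3 reached 10 FPKM. These 3 were KCNG1, KCNK12 and PKDCC, all of them higher in the knockdown library. The median listed transcript length was 3923 bases for the channel genes and 3145 bases for all listed genes.

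Among the 24 genes at 1 FPKM or more, 8 (33.3%) were higher by 2-fold or more and 14 (58.3%) were lower by as much on the scale of levels with the 0.1 FPKM added. Over all listed genes at 1 FPKM or more these shares were 51.7% and 44.8%. By ratios of reads the counts were 10 higher and 12 lower, and the shares over all listed genes 53.5% and 45.7%. Where no pair of reads was recovered, as for KCNK12, the reads that level and length imply were used. Of the 1587 listed genes at 1 FPKM or more, 1309 had a recovered pair. GRIA3 and CACNG6, under 2-fold by reads, had pairs from a wider search made for members only, so counts and shares are not wholly alike. At 4-fold by reads, 4 were higher (PKD1L1, GABRB2, KCNE3 and KCNG1) and 6 lower (SCNN1G, PKD1L2, KCNJ8, GABRP, GRIA4 and CACNA1F), where all listed genes had 17.1% and 9.64%. On the scale of levels with the 0.1 FPKM added, GABRB2 and CACNA1F fell short of 4-fold, which left 3 and 5, against 15.1% and 6.74%. Without that addition their levels differed 4.77-fold and 5.08-fold. The median log2 ratio of levels was -1.10, against 1.02 over all listed genes at that level. The table holds no gene between the 2-fold limits, so such a median lies on the side that has more genes. Restricted to the 7 members that reached 5 FPKM, PKDCC and PKD1L2 among them, 5 were higher and 2 lower, and the median was 1.22. That median is the ratio of KCNK12, whose level and p-value disagree, as described below. With a counting interval wholly beyond 2-fold, 5 were higher and 8 lower of the 23 with recovered reads, where all listed genes had 35.8% and 27.1%. No list was tested against the rest of the table.

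**Figure D1:**
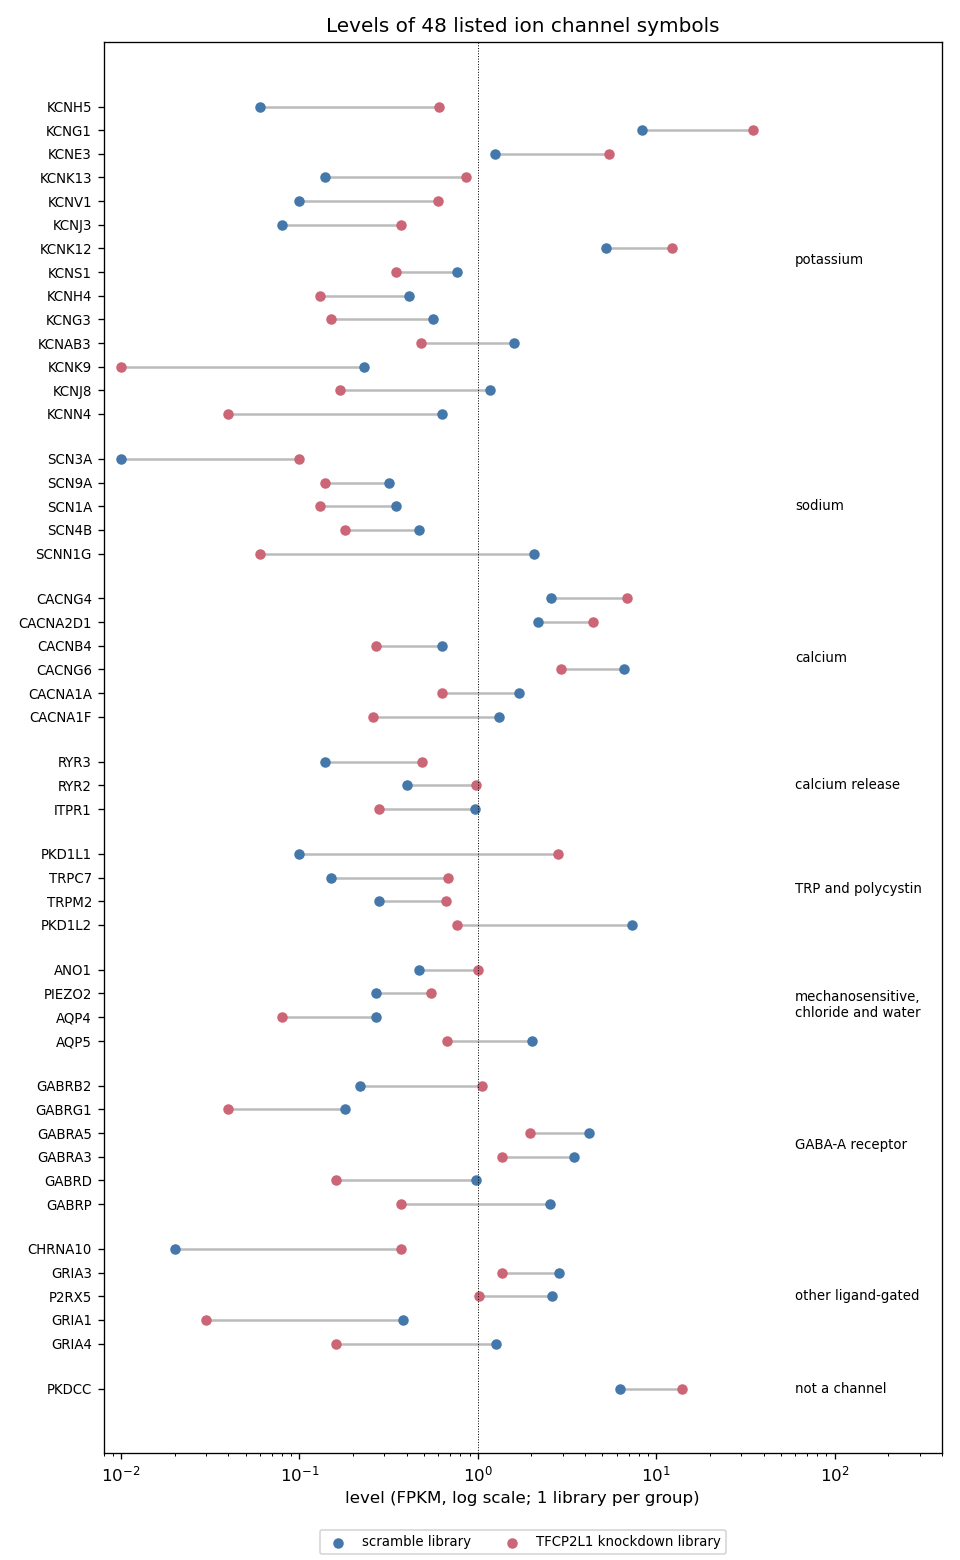
Level of 48 of the 49 genes in FPKM on a log axis, 1 point for the scramble library (blue) and 1 for the knockdown library (red), joined by a line and grouped by channel family. The dotted line marks 1 FPKM, and 25 of the genes have both points below it.

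Potassium channel genes were the largest group, with 15 of 96 coding symbols of that stem in RefSeq listed, 8 higher and 7 lower. The shares over all listed genes were 54.1% higher and 45.9% lower, close to this split. In each subfamily with several listed genes, members were listed in opposite directions. The silent voltage-gated subunits, which form no channel of their own and modify Kv2 channels by joining them, give the clearest case. KCNG1 was at 8.31 and 34.81 FPKM, the highest level of any channel gene listed. Its 436 and 1765 reads made it 4.19-fold higher (3.77 to 4.66). KCNV1, also silent, was at 0.10 and 0.60 FPKM, 6.21-fold higher (3.63 to 11.3). By contrast KCNG3 was at 0.56 and 0.15 FPKM, 3.64-fold lower (1.95 to 7.32), and KCNS1 was at 0.77 and 0.35 FPKM, 2.18-fold lower (1.51 to 3.20). The subfamily thus had 2 genes on each side, and KCNG1 was the one above 1 FPKM.

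Among voltage-gated subunits that form pores, the ether-a-go-go family split: KCNH5 was at 0.06 and 0.61 FPKM, 11.4-fold higher (4.59 to 36.4) on 5 and 55 reads, and KCNH4 was at 0.41 and 0.13 FPKM, 3.25-fold lower (1.62 to 7.07).

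Inward rectifiers pass potassium more easily into the cell than out of it. KCNJ8, the pore of a channel closed by ATP, was at 1.17 and 0.17 FPKM, 6.88-fold lower (3.40 to 15.7). KCNJ3, the pore of a channel opened by G protein beta-gamma subunits, was at 0.08 and 0.37 FPKM, 4.83-fold higher (1.96 to 14.3) on 6 and 28 reads. Both genes were again on opposite sides.

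The tandem-pore channels carry background leak current. KCNK12 and KCNK13, the THIK pair of close relatives, were both higher, at 5.25 and 12.34 FPKM for KCNK12 and at 0.14 and 0.86 FPKM for KCNK13. KCNK13 was 6.46-fold higher (3.04 to 15.8) on 8 and 50 reads. For KCNK12 no pair of reads within the range searched matched its level and its deposited p-value together. Its level and length would give 358 and 813 reads, while at the same ratio the p-value corresponds to about 54 and 123, so its ratio of 2.35 by level has no interval here. KCNK9, an acid-sensitive leak channel, was at 0.23 FPKM with 12 reads in the scramble library and at the floor of the table, 0.01 FPKM with 0 reads, in the knockdown library. Against a floor of 3 reads per library it was at least 3.87-fold lower, a value that leaves out counting error in the scramble library. The interval for KCNK9 ran from 2.69-fold lower upward. KCNN4, a channel opened by calcium through calmodulin, was at 0.63 and 0.04 FPKM, 15.5-fold lower (3.95 to 133) on 32 and 2 reads.

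Auxiliary potassium channel subunits also differed in direction. KCNE3, a small membrane protein that holds KCNQ1 channels open in epithelia, was at 1.25 and 5.43 FPKM, 4.34-fold higher (3.45 to 5.52). KCNAB3, a cytoplasmic beta subunit of Kv1 channels, was at 1.59 and 0.48 FPKM, 3.31-fold lower (2.12 to 5.34). Of the 31-base words of the KCNE3 transcript, 23.7% also occur in another gene, most of all in one annotated as antisense to it, so its level is uncertain. The same holds for KCNJ8 with 10.2%. For KCNAB3, KCNV1 and KCNG1 the shares of words in another gene were 9.14%, 8.94% and 6.53%.

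**Figure D2:**
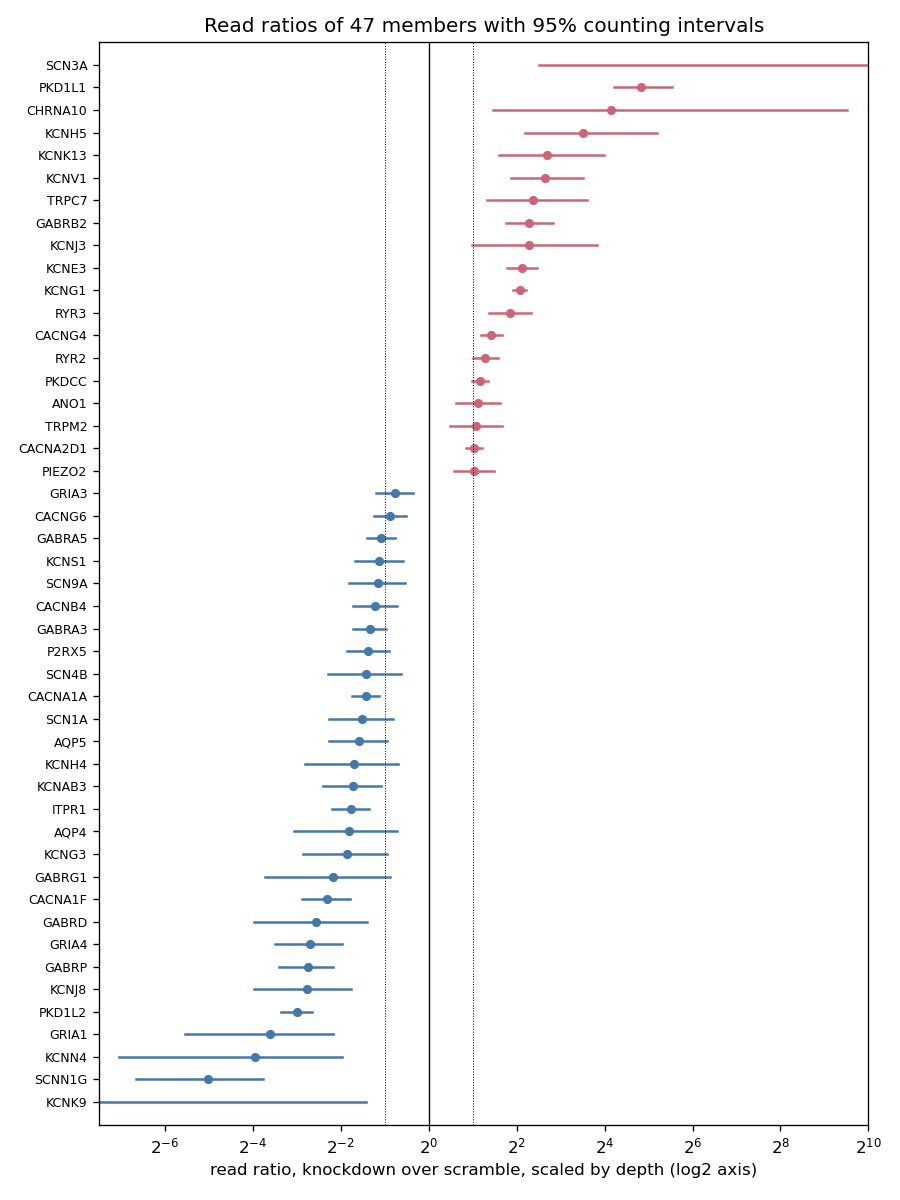
Ratio of reads, knockdown over scramble and scaled by depth, on a log2 axis for 47 of the 48 genes with recovered reads, with exact 95% counting intervals as bars (red higher, blue lower, dotted lines at 2-fold). SCN3A and KCNK9, which had 0 reads in 1 library, are drawn as bars without a point. The bars of all 47 genes drawn lie on 1 side of the solid line at equal levels. That was fixed in advance and is no separate support, since the reads were recovered from p-values that are small for every listed channel gene.

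Sodium channel genes had 5 listed of 18 coding symbols, 1 higher and 4 lower, where 45.9% of all listed genes were lower. SCNN1G, the gamma subunit of the epithelial sodium channel, which carries sodium uptake in kidney, colon and lung, had the lowest ratio of all 49 genes except for KCNK9, whose ratio is only bounded. It was at 2.06 FPKM with 167 reads in the scramble library and at 0.06 FPKM with 5 reads in the knockdown library, 32.3-fold lower (13.6 to 101). The other subunits of that channel, SCNN1A, SCNN1B and SCNN1D, had no row.

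The voltage-gated sodium channels SCN1A, SCN3A and SCN9A are neighbours in 1 gene cluster. SCN1A was at 0.35 and 0.13 FPKM, 2.86-fold lower (1.76 to 4.81), and SCN9A at 0.32 and 0.14 FPKM, 2.25-fold lower (1.45 to 3.54). SCN3A was at the floor with 0 reads in the scramble library and at 0.10 FPKM with 22 reads in the knockdown library, at least 7.58-fold higher against the floor of 3 reads, with an interval from 5.67 upward. So the cluster held genes on both sides, all of them below 0.5 FPKM. The auxiliary gene SCN4B was at 0.47 and 0.18 FPKM, 2.69-fold lower (1.54 to 4.89). Antisense genes overlap SCN1A, SCN3A and SCN9A. Of the 31-base words of each transcript, 7.18% (SCN1A), 7.96% (SCN9A) and 12.1% (SCN3A) also occur in another gene, most of all in an antisense gene, and the strand setting of the counting is not given in the sources used here.

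Voltage-gated calcium channel genes had 6 listed of 26 coding symbols, 2 higher and 4 lower. Both listed pore-forming genes were lower, as were 45.9% of all listed genes. CACNA1A, the pore of P/Q-type channels, was at 1.71 and 0.63 FPKM, 2.70-fold lower (2.19 to 3.34) on 343 and 123 reads. CACNA1F, an L-type pore best known in the retina, was at 1.32 and 0.26 FPKM, 5.0-fold lower (3.47 to 7.40) on 181 and 35 reads. CACNB4, a cytoplasmic beta subunit that brings such pores to the membrane, was at 0.63 and 0.27 FPKM, 2.33-fold lower (1.66 to 3.32), with 13.7% of its words in another gene. The auxiliary genes that were higher were CACNA2D1, an extracellular subunit that also binds gabapentin, and CACNG4, which belongs to the gamma subunits that escort AMPA receptors. CACNG4 was at 2.57 and 6.86 FPKM, 2.67-fold higher (2.27 to 3.16), and CACNA2D1 at 2.17 and 4.43 FPKM, 2.04-fold higher (1.81 to 2.32). CACNG6, a gamma subunit of the calcium channel type, was at 6.58 and 2.94 FPKM. Its 177 and 93 reads made it 1.84-fold lower (1.42 to 2.39), under the 2-fold of its levels.

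The channels that release calcium from internal stores were represented by 3 of 6 genes, all of them below 1 FPKM. RYR2 and RYR3, the ryanodine receptors known from heart and from brain, were higher and ITPR1 was lower, where 54.1% of all listed genes were higher and 45.9% lower. RYR2 was at 0.40 and 0.98 FPKM, 2.44-fold higher (2.01 to 2.96) on 154 and 363 reads, and RYR3 at 0.14 and 0.49 FPKM, 3.58-fold higher (2.60 to 5.01). ITPR1, an inositol trisphosphate receptor, was at 0.96 and 0.28 FPKM, 3.41-fold lower (2.58 to 4.58) on 226 and 64 reads. These transcripts are long (16365 bases for RYR2), so that levels below 1 FPKM rested on 223 to 517 reads per gene.

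Both listed genes with the TRP stem were higher, as were 54.1% of all listed genes. TRPC7, a calcium-permeable channel opened by diacylglycerol, was at 0.15 and 0.68 FPKM, 5.17-fold higher (2.50 to 12), and TRPM2, opened by ADP-ribose, was at 0.28 and 0.66 FPKM, 2.10-fold higher (1.4 to 3.18). Polycystin-type genes encode large membrane proteins, some of which assemble with TRP-like partners. PKD1L1, known for its part in left-right patterning at the embryonic node, was at 0.10 FPKM with 21 reads in the scramble library and at 2.83 FPKM with 579 reads in the knockdown library. It was 28.5-fold higher (18.5 to 46.4), the highest ratio of all 49 genes with a point estimate. Its relative PKD1L2 went the other way, at 7.33 and 0.77 FPKM, 8.01-fold lower (6.28 to 10.4) by reads and 9.52-fold by level. The reads of PKD1L2 and TRPM2 came from the wider search for pairs, and TRPM2 differed 2.36-fold by level. PKDCC, the kinase caught by the same letters, was at 6.25 and 14.04 FPKM, 2.25-fold higher (1.99 to 2.56).

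The mechanosensitive channel gene PIEZO2 was at 0.27 and 0.55 FPKM, 2.04-fold higher (1.49 to 2.81), and ANO1, a chloride channel opened by calcium, at 0.47 and 1.00 FPKM, 2.17-fold higher (1.54 to 3.08), with 12.4% of its words shared with other genes, chiefly its antisense gene. Both listed aquaporins were lower, as were 45.9% of all listed genes. AQP5, a water channel of secretory glands, was at 2.02 and 0.67 FPKM, 3.01-fold lower (1.93 to 4.83), and AQP4, the water channel of astrocytes, was at 0.27 and 0.08 FPKM, 3.55-fold lower (1.66 to 8.42). No row was found for the 9 CLCN, 6 CLIC, 10 HCN and CNG, 5 ASIC and 4 GLR coding symbols.

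GABA-A receptors are chloride channels built from several kinds of subunit, and 6 of 19 genes with the GABR stem were listed, 5 lower and 1 higher, where 45.9% of all listed genes were lower. GABRA5 was at 4.22 and 1.96 FPKM, 2.13-fold lower (1.72 to 2.65), and GABRA3 was at 3.45 and 1.36 FPKM, 2.53-fold lower (1.96 to 3.30). The alpha subunits were the most abundant of these genes, with 273 and 220 reads in the scramble library. GABRP, the pi subunit, found mainly outside the nervous system, was at 2.53 and 0.37 FPKM, 6.77-fold lower (4.51 to 10.5). GABRD, a subunit of receptors outside the synapse, was at 0.98 and 0.16 FPKM, 5.94-fold lower (2.65 to 15.6), and GABRG1 at 0.18 and 0.04 FPKM, 4.51-fold lower (1.83 to 13.3). GABRB2, one of the beta subunits that complete the GABA site, was the exception, at 0.22 and 1.05 FPKM with 37 and 173 reads, 4.84-fold higher (3.37 to 7.10).

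AMPA receptors carry fast excitatory transmission, and 3 of their 4 subunit genes were listed. All were lower, where 45.9% of all listed genes were lower. GRIA4 was at 1.27 and 0.16 FPKM, 6.50-fold lower (3.94 to 11.3) by reads from the wider search and 7.94-fold by level. GRIA1 was at 0.38 and 0.03 FPKM, 12.3-fold lower (4.53 to 47.0) on 51 and 4 reads. GRIA3 was at 2.86 and 1.37 FPKM, and its 131 and 74 reads made it 1.71-fold lower (1.28 to 2.31), again under the 2-fold of its levels. The fourth gene, GRIA2, and all NMDA, kainate and delta receptor genes had no row. P2RX5, an ATP-gated channel, was at 2.60 and 1.02 FPKM, 2.59-fold lower (1.86 to 3.66). It shares 62.3% of its words with other annotated transcripts, chiefly the readthrough gene P2RX5-TAX1BP3, so it is uncertain which of them was counted. CHRNA10, a nicotinic subunit of the inner ear, was higher, at 0.02 and 0.37 FPKM, a ratio of 17.6 on 1 and 17 reads (2.76 to 735).

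**Figure D3:**
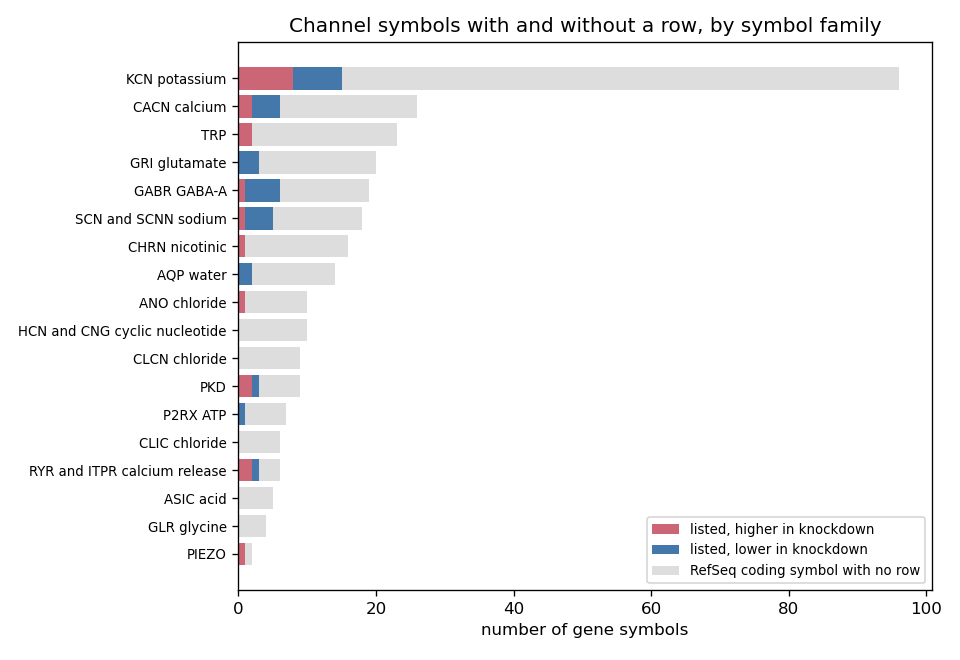
Number of coding symbols per symbol family in RefSeq, split into those listed as higher (red), listed as lower (blue) and without a row (grey); PKD1L2 is counted with the PKD bar although RefSeq does not annotate it as coding. The KCN bar holds 8 red and 7 blue of 96, and the GRI bar holds 3 blue and 0 red of 20.

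Over all families, 48 of 299 coding symbols of these stems in RefSeq had a row (16.1%). The share of 10.8% over genes the authors tested has another denominator, since it is not known which channel genes were tested, and the shares were not compared.

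Genes that work with channels but carry other symbols were taken from lists of channels outside these stems, gap junction proteins, partner proteins and ion pumps. Of 57 other channels 7 were listed, 3 higher and 4 lower, where 54.1% of all listed genes were higher and 45.9% lower. The mucolipins, calcium channels of lysosomes and endosomes that belong to the TRP family under another stem, were all listed and not in 1 direction: MCOLN1 at 0.58 and 3.96 FPKM was 7.09-fold higher (4.72 to 11), MCOLN3 was at 2.17 and 5.23 FPKM, and MCOLN2 at 0.57 and 0.09 FPKM was 6.45-fold lower (2.72 to 18.6). HTR3A, a serotonin-gated channel, was at 4.51 and 1.58 FPKM, 2.84-fold lower (2.19 to 3.72). Of 21 gap junction genes 1 was higher (GJA5, 0.22 and 0.86 FPKM) and 1 lower (GJA3, 0.36 and 0.10 FPKM).

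Of 56 partner proteins 4 were higher and 4 lower. CNTNAP2, which clusters potassium channels on axons, was at 18.57 and 149.33 FPKM, above all 49 listed channel genes. ANK2, an ankyrin that anchors channels to the cytoskeleton, was at 2.06 and 6.79 FPKM, and NETO2, a partner of kainate receptors, at 4.33 and 11.91 FPKM. The STAC proteins, adaptors that hold L-type calcium channels at the membrane, were all lower, as were 45.9% of all listed genes. STAC at 1.65 and 0.57 FPKM was 2.90-fold lower (2.0 to 4.28). STAC2 at 4.32 and 1.82 FPKM was 2.37-fold lower (1.93 to 2.92), and STAC3 at 3.09 and 0.96 FPKM was 3.30-fold lower (2.23 to 4.99). JPH4, a junctophilin that couples surface and store membranes, was at 16.04 and 4.84 FPKM, 3.33-fold lower (3.0 to 3.70).

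Of 20 ion pump genes 4 were listed and all were lower, where 45.9% of all listed genes were lower. ATP1B2, a beta subunit of the sodium pump, was at 44.01 and 18.52 FPKM, 2.37-fold lower (2.22 to 2.53). ATP2A1, a calcium pump of the store membrane, was at 3.39 and 1.32 FPKM.

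Markers of the cell types that the libraries could hold were also listed. All 12 endoderm and primitive streak markers were higher in the knockdown library, with summed levels of 12.2 and 1423 FPKM, and SOX17 was at the floor in the scramble library. Of 12 markers of undifferentiated cells 6 were listed, all lower, with levels that summed to 561 and 207 FPKM over these 6. The other 6, POU5F1, NANOG, DPPA4, LIN28A, TDGF1 and DNMT3B, had no row and are not in the sums. Over all listed genes, 54.1% were higher and 45.9% were lower. Of 14 neural markers NES was higher and ELAVL3, SOX3 and SYP were lower, and of 12 muscle and heart markers MYL7 and TTN were higher and TNNT2 lower. In bulk RNA, fewer cells of a type and less RNA per cell cannot be told apart. The part of these marker differences in the channel gene differences was not tested.

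**Figure D4:**
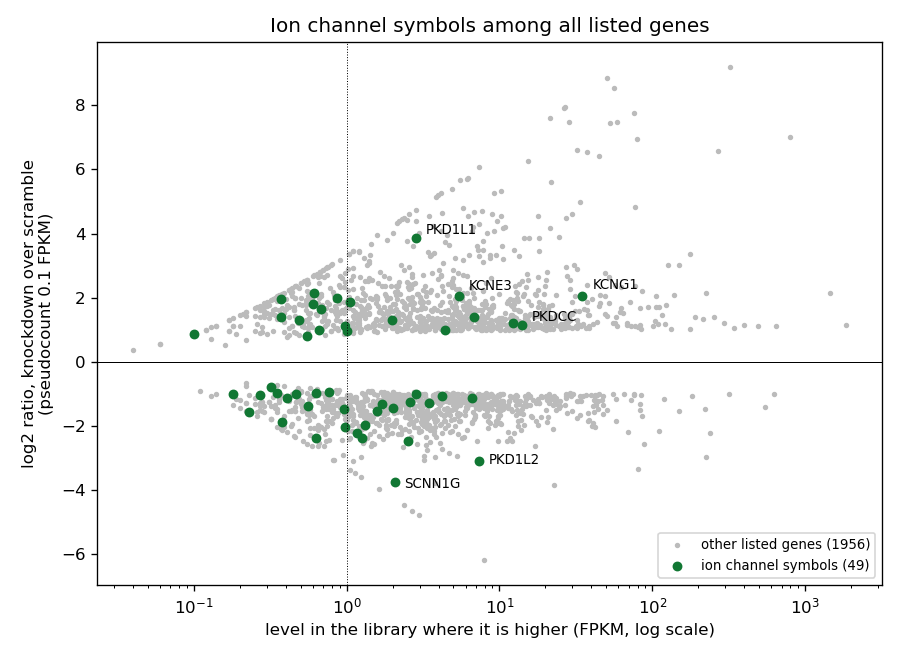
Log2 ratio of knockdown over scramble (pseudocount 0.1 FPKM) against the level in the library where the gene is higher (FPKM, log axis) for the 49 ion channel symbols (green) and the 1956 other listed genes (grey). The band around 0 is empty because the authors listed only genes that differed by at least 2-fold. The pseudocount brings some genes at low levels inside that limit. The dotted line marks 1 FPKM, and KCNG1 at 34.8 FPKM is the green point farthest to the right.

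Start-proximal sequence was available for 30 of the 49 genes in the RefSeq promoter table (GRCh38.p14), read as the 250 bases before each annotated start. It was searched on both strands for CCNG followed after 6 bases by CCNG, a loose form of the repeated half-site that CP2-family factors such as TFCP2L1 bind. A match was present at 14 of the 42 starts of these genes (33.3%) and at 34.8% of all 35116 starts in the table. By direction, 6 of 12 genes that were higher and 6 of 18 that were lower had a match at 1 start or more. These counts are per gene, and a gene with several starts has more chances of a match. The share per gene over all genes is not given here, so the split by direction has no background to be read against. Such a match is a description of letters, not a binding site. The sequences of 1 gene that was higher and 2 that were lower are shown to let both kinds be seen, with matches in capitals. KCNE3 (higher, chr11:74467550-74467799, minus strand) and AQP5 (lower, chr12:49961622-49961871, plus strand) each hold 3 matches, some of which can overlap, in windows of 73.2% and 84.4% G and C, and GABRP (lower, chr5:170783475-170783724, plus strand) holds 0 in a window of 54.8%.
KCNE3: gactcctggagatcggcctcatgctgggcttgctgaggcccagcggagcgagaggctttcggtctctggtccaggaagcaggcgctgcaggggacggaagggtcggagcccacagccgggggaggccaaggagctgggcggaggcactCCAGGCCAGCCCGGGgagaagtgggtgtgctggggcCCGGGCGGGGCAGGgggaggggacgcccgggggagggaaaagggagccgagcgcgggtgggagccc
AQP5: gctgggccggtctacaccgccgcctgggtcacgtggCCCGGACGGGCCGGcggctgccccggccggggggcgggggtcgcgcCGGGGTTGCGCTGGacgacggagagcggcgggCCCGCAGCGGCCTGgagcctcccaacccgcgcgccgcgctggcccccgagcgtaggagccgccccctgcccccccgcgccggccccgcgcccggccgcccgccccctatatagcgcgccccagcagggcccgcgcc
GABRP: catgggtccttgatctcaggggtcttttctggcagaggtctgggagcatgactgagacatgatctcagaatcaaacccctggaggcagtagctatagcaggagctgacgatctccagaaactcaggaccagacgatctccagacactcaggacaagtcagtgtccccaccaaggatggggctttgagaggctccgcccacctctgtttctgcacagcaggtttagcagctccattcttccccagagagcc
Matches were thus present in a window of a gene on either side, and the median G and C content was 63.6% over the starts of channel genes and 58% over all starts.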

How the data were processed

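RNA was extracted with Trizol, 1 ug per library was used, and a BGISEQ-500 was used, as the protocols in the labels say, which also name Illumina library preparation. The submitters' processing notes name Bowtie 0.12.2 and hg19. The counter, test and strand setting were not given in the sources used here. The authors' deposited table holds a level per library, read as FPKM because the values scale with reads over length and library size (RPKM cannot be told apart), a log2 ratio, p-values with false discovery rates, and a length. Values at or near 0 are deposited as 0.01 FPKM.

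The members and lists were chosen with earlier results of these data known. The number of genes tested was taken from whole ranks in the ratio of p-value to false discovery rate. Read pairs were sought that match both levels within 3% and the deposited p-value, taken as 2 times the smaller tail of the Audic-Claverie statistic, within 1e-05 of its natural log, with a depth ratio of 1.034 and a length offset of 66 bases. Exactly 1 such pair was found for 1698 (88.2%) of the 1926 genes whose p-value was above 0. For 43 members this held. For 5 more a pair was found when reads could be 30% to 170% of those from the level, a wider search made for members only. These were GRIA3, GRIA4, CACNG6, PKD1L2 and TRPM2. On simulated tables of 1926 genes, 99.8% of the 1760 genes with a p-value in range had 1 pair, all of them the pair drawn, and the interval held the true ratio for 94% of 200 changed genes. These tables were drawn with the same statistic, depth ratio and length offset. They therefore check the search, not whether the deposited values follow that statistic. The search at 30% to 170% was not simulated. Named genes are the members, with both levels, and up to 3 genes in each direction of the other lists, except 1 of each kind that is counted but not reported here, and STAC2 was added after its value was seen. Fold counts used 1 FPKM or more in at least 1 library. With 1 library per group, no test of the conditions was run. Word sharing used 31-base words of the longest GENCODE transcript, in either orientation. Python 3.11.15, numpy 2.4.6, pandas 2.3.3, scipy 1.17.1 and matplotlib 3.10.9 were used.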

Additional observations from a re-analysis of the deposited data

How the results depend on the processing

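No paired analysis was possible because each group had 1 library, and for the same reason no library could be left out. The count of 8 members at least 2-fold higher was 17 with no filter on low values, 5 with a minimum of 5 FPKM and 5 where the counting interval had to lie wholly beyond 2-fold. The count of 14 lower members was 24, 2 and 8 under the same settings, and 3 with a pseudocount of 1 FPKM, which gave 6 higher. With recovered reads (for KCNK12, those its level implies) there were 10 higher and 12 lower. There were 10 and 14 with a pseudocount of 0.01 FPKM or with ratios from the authors' deposited table. At 4-fold, recovered reads, a scale added after the data were seen, gave 4 and 6 against 3 and 5. The median log2 ratio of -1.10 was -0.77 and -1.13 with pseudocounts of 1 and 0.01 FPKM, -0.98 with no filter, -1.13 with ratios from the authors' deposited table, -0.98 with recovered reads and -1.14 without PKDCC. It changed sign, to 1.22, over the 7 members at 5 FPKM or more, of which 5 were higher and 2 lower. Leaving out the 6 members with 10% or more of their words in another gene, a setting chosen after the data were seen, gave 7 higher, 12 lower and the same median. Of 88 log2 ratios of the 22 members past 2-fold under other settings, 72 stayed inside the gene's counting interval (for KCNK12, that of the reads its level implies), 16 left it, and 0 changed sign. The interval is built around the ratio of recovered reads, so ratios at that setting lie inside it by construction. Those with a pseudocount of 0.01 FPKM or from the authors' deposited table are close to the same ratio, so the 72 are no check of robustness. With a pseudocount of 1 FPKM, 16 of the 22 left the interval. Depth limits the genes below 1 FPKM most: CHRNA10, SCN3A and KCNK9 rest on 18, 22 and 12 reads over both libraries.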

Other observations

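For 4 members, GRIA3, GRIA4, CACNG6 and PKD1L2, the recovered reads in the knockdown library were 98.8% to 100.3% of those that level and length imply, while those in the scramble library were 80.9% to 84.4%. Their folds by level were therefore larger than by reads: 2.09 against 1.71 for GRIA3, 7.94 against 6.50 for GRIA4, 2.24 against 1.84 for CACNG6 and 9.52 against 8.01 for PKD1L2. For TRPM2 the shares were 113% (scramble) and 101% (knockdown).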
